A study of Mus musculus with 2 samples.

Results

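S100a6, Krt17 or Plaur positive cells are PD100 mouse embryonic stem cells that were selected on the measured values of these 3 genes, by having at least 1 UMI (unique molecular identifier, a tag that counts each captured mRNA molecule once) of the 3 together. They numbered 180 of the 591 PD100 cells that the selection considered, and of 1714 cells after the cell filter in the whole series. The cells considered had at least 1000 UMIs in total and at most 20% of them from mitochondrial genes. PD100 cells with 5 or more UMIs of the endoderm genes Col4a1, Col4a2, Srgn, Gata6 and Gata4 together (37 cells) and other cells with any Lefty1 or Lefty2 UMI (186 cells) had been taken out beforehand. The remaining 411 cells had 0 UMIs of the 3 markers and served as the comparison. Because the markers chose the cells, their own levels are given as a description.

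The study followed mouse embryonic stem cells that lack the telomerase RNA gene Terc, in the line DKO741 made from E14 cells, through long culture. Both libraries therefore carry the Terc knock-out, and the labels give PD100 as passage 100 and PD800 as passage 800. In the paper PD stands for population doubling. It places PD100 before and PD800 after the activation of alternative lengthening of telomeres (ALT). Each time point is represented by 1 inDrops droplet library of 1 cell line. Stocks of the line were kept on mouse embryonic fibroblast feeders, while the cells used in experiments were grown without them. The PD100 library held 1291 barcodes and 814 cells after the filter with a median of 2151 UMIs, and the PD800 library held 1666 barcodes and 900 cells with a median of 2701.5 UMIs. No barcode group can serve as a replicate of another, so no test was made between libraries or between sets of cells. All intervals below are exact 95% intervals that cover counting error only, and cells that vary more than counting does would make them wider. Of the cell barcodes, 21 were named in both libraries, and 2 of the 180 positive cells were among them.

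S100a6 encodes a small calcium-binding protein of the S100 family, whose members bind annexins at membranes. Krt17 encodes a type I keratin, an intermediate filament protein known from stressed and stratified epithelia. Plaur encodes the urokinase receptor, which holds plasminogen activation at the cell surface and signals together with integrins. Embryonic stem cells in culture are a mixture of states, from naive pluripotency towards the start of differentiation, where simple-epithelial keratins such as Krt8 and Krt18 are made.

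In the genome (GRCm38, GENCODE M21), S100a6 lies at chr3:90612882-90624181 on the plus strand, Krt17 at chr11:100256217-100261029 on the minus strand and Plaur at chr7:24462484-24475968 on the plus strand, all protein-coding. RefSeq promoter windows (GRCm38.p6, from 250 bases before to 50 after the gene start) were at hand for 12 of 15 genes looked up, the markers and the 12 genes that led the comparison below. They are shown for S100a6 and Plaur as markers, and for Anxa2 as the annexin with the clearest difference between the sets. Capitals mark matches to TGANTCA, the AP-1 letters, and to GGGCGG, the SP/KLF letters, searched on both strands.
S100a6, chr3:90612644-90612943, plus strand: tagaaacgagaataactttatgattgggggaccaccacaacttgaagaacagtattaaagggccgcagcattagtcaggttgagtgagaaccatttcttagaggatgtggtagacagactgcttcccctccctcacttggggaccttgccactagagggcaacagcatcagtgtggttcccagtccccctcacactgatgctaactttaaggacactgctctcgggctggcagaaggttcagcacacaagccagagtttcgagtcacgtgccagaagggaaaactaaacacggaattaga
Plaur, chr7:24462233-24462532, plus strand: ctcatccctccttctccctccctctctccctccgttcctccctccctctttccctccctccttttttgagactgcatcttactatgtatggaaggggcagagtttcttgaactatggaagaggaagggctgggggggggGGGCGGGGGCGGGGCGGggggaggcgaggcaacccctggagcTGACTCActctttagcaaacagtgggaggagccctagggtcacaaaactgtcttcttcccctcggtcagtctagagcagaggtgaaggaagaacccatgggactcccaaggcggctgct
Anxa2, chr9:69453433-69453732, plus strand: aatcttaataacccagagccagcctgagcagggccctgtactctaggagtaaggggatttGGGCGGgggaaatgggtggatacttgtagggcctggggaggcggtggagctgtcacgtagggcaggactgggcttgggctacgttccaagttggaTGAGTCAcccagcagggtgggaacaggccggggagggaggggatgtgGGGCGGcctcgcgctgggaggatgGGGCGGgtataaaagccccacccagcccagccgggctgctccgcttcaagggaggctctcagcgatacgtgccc
The Plaur window held TGACTCA from 69 bases before the start and 3 copies of GGGCGG that lie end to end or overlap by a base. The Anxa2 window held TGAGTCA from 95 bases before the start and 3 separate copies of GGGCGG. No motif letters were found in the S100a6 window. The 12 genes had 15 windows, 4 of them overlapping windows of Csnk1e. AP-1 letters occurred in 2 of the 15 (Plaur and Anxa2), SP/KLF letters in 10, which belong to 7 genes, and the TEAD letters GGAATG in 0. Among all 32851 promoter windows in the table, 7.81% held the AP-1 letters, 35.7% the SP/KLF letters and 14.7% the TEAD letters. These matches describe letters in a window and were not tied to binding.

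Most positive cells held very few marker UMIs. S100a6 was seen in 120 of the 591 cells with 204 UMIs (highest in a cell, 6), Plaur in 62 cells with 91 UMIs (highest 5) and Krt17 in 34 cells with 48 UMIs (highest 5). Of the 180 positive cells, 88 had S100a6 as the only marker, 35 had Plaur and 21 had Krt17. S100a6 occurred together with Plaur in 23 cells and with Krt17 in 9 cells, Krt17 with Plaur in 4 cells, and all 3 markers together in 0 cells. At the threshold, 90 cells just inside it held 1 marker UMI and 411 cells just outside held 0, while 47 cells held 2 UMIs and 43 held 3 to 7. The set is thus a range of low counts cut at 1 UMI.

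**Figure D1:**
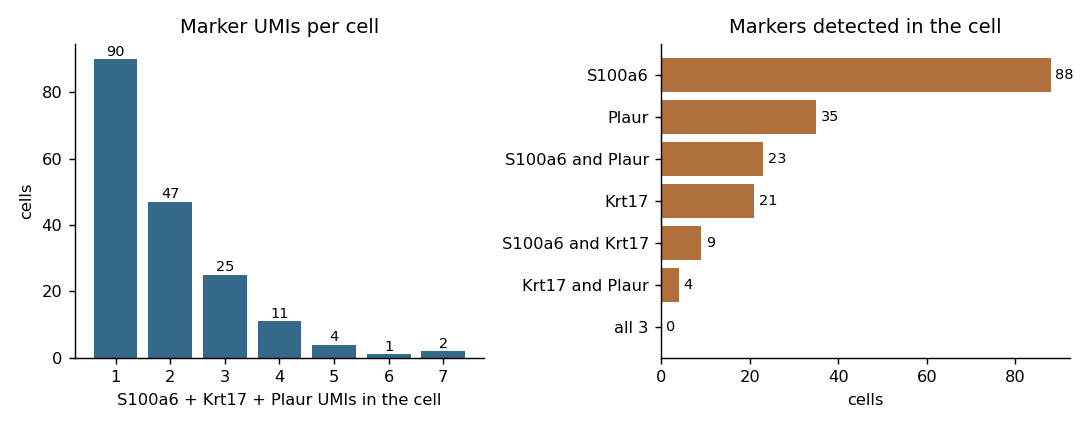
Left, number of positive cells (y axis) by the summed S100a6, Krt17 and Plaur UMIs in the cell (x axis). Right, number of cells (x axis) for each combination of markers with a UMI. The tallest bars are the 90 cells with 1 marker UMI and the 88 cells with S100a6 alone, and 0 cells held all 3.

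Deeper cells held a marker UMI more often. Positive cells made up 20.4% of cells with 1000 to under 1500 UMIs (28 of 137, interval 14.03 to 28.2%) and 46.7% of cells with 3000 or more (42 of 90, 36.1 to 57.5%). In the 3 depth classes between, the share was 29.8%, 30.5% and 30.4%. Each positive cell was therefore paired with the cell of 0 marker UMIs nearest to it in total UMIs. All 180 found a partner within 4.95% of their own total.

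The 3 markers were also counted in the PD100 barcodes set aside by the selection. Cells with a Lefty UMI were positive in 55 of 186 cases (29.6%, interval 23.1 to 36.7%), close to the 30.5% (26.8 to 34.3%) of the cells considered. In those Lefty cells Krt17 was found in 10.8% (6.69 to 16.1%) against 5.75% (4.02 to 7.95%) of the cells considered, and Plaur in 5.91% (2.99 to 10.3%) against 10.5% (8.14 to 13.2%). In the 37 endoderm-gene cells Plaur was found in 14 (37.8%, 22.5 to 55.2%), with 326 CPM (UMIs scaled to a summed total of 1000000) against 70.4 CPM in the cells considered, while S100a6 stood at 33.7 CPM against 158 CPM. The interval of Plaur in endoderm-gene cells lies above that of the cells considered, whereas the intervals for the Lefty cells overlap those of the cells considered for Krt17 and for Plaur. Barcodes under 1000 UMIs, with a median of 454, held S100a6 at 229 CPM, Krt17 at 27.5 CPM and Plaur at 64.2 CPM. Free RNA in droplets can give such UMIs, PD100 offers no cell type known to lack these genes, and the part of free RNA in the single-UMI cells was not tested.

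At PD800 the markers were nearly absent. S100a6 was found in 11 of 887 cells (14 UMIs, 5.50 CPM), Krt17 in 6 cells (7 UMIs, 2.75 CPM) and Plaur in 0 of 887 cells, which allows a share of cells with a UMI of up to 0.338% when 3 counts are taken as the limit of a count of 0, and up to 0.415% by the exact binomial interval. After thinning every cell to 1000 UMIs, which left out 0 cells, 99 of 591 PD100 cells (16.8%, 13.8 to 20.01%) and 12 of 887 PD800 cells (1.35%, 0.701 to 2.35%) had an S100a6 or Krt17 UMI. Without thinning the shares were 24.5% and 1.92%, at median depths of 2084 and 2694 UMIs. The PD100 share was higher at the lower depth, and with 1 library for each time point the passage and the library cannot be told apart.

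Joint detection of the markers was compared with that in depth-matched cells. Of 34 Krt17 cells, 9 had an S100a6 UMI (26.5%, 12.9 to 44.4%), against 5 of 34 matched cells without Krt17 (14.7%, 4.95 to 31.1%). Of 62 Plaur cells, 23 had an S100a6 UMI (37.1%, 25.2 to 50.3%), against 18 of 62 matched cells without Plaur (29.0%, 18.2 to 41.9%). Krt17 cells and their matched cells each had Plaur in 4 of 34 cases (11.8%). With the Lefty cells added, 18 of 54 Krt17 cells (33.3%, 21.1 to 47.5%) and 9 of 54 matched cells (16.7%, 7.92 to 29.3%) had an S100a6 UMI. The intervals overlap for each pair of markers, and these values describe the genes that chose the cells.

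Positive and matched cells had close quality measures, but total UMIs are close by construction, since partners were chosen on them. The median total was 2230 UMIs in positive and 2227.5 in matched cells, the median number of detected genes 1076.5 and 1084, and the median mitochondrial share 1.15% and 1.19%. All 411 cells with 0 marker UMIs, without matching, had medians of 2025 UMIs, 1006 genes and 1.28%. Abundant core pluripotency transcripts were at close levels in positive and matched cells. Dppa5a had 3950 UMIs in positive and 3960 in matched cells (log2 ratio -0.01, interval -0.07 to 0.05), Pou5f1, which encodes Oct4, had 250 and 263 (-0.08, -0.33 to 0.18), and Utf1 had 450 and 433 (0.05, -0.14 to 0.24). The positive cells as a whole thus carried the defining transcripts of embryonic stem cells.

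Few other genes differed by much in the summed counts. Of 2847 genes with 50 or more UMIs over both sets, 26 (0.913%) were 2-fold or more higher in positive than in matched cells and 25 (0.878%) were 2-fold or more lower, and the median log2 ratio was -0.01. The numbers in each direction were nearly equal, and 12 of the 26 higher genes remained when all cells with 0 marker UMIs were weighted to the depth of the positive cells. Genes were therefore ordered by whichever bound of their interval was closest to no difference, and the 12 at each end are named. The upper end held an annexin, 2 simple-epithelial keratins, a galectin, an imprinted RNA and 7 genes of other functions.

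Anxa2, encoding annexin A2, a calcium-dependent membrane protein that pairs with S100 proteins, had 91 UMIs in positive and 21 in matched cells (213 and 49.4 CPM). Its log2 ratio was 2.11 (1.41 to 2.87), and it was detected in 45 against 17 cells. Krt8 and Krt18, the keratin pair that forms the filaments of simple epithelia, had 87 against 25 UMIs (log2 ratio 1.79, 1.14 to 2.50) and 140 against 64 UMIs (1.12, 0.69 to 1.57). The keratins are a multigene family, and how reads shared between near-identical copies were counted is not given in the sources used here. Lgals1, encoding the secreted lectin galectin-1, had the most UMIs of the group, 485 against 258 (0.91, 0.68 to 1.13), in 122 against 84 cells. Capg, an actin filament capping protein, had 51 against 13 UMIs (1.97, 1.07 to 2.97), in 33 against 11 cells. Anxa2, Capg and Lgals1 were thus detected in more positive than matched cells, while Krt18 was detected in 36 and 31 cells and differed mainly by its UMIs in a few of them.

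H19, an imprinted non-coding RNA, had the largest log2 ratio, 2.90 (1.83 to 4.18), with 60 UMIs in positive and 8 in matched cells. These 60 UMIs came from 11 cells, and 6 of those cells held 52 of them. Over all 411 cells with 0 marker UMIs, H19 had 14 UMIs in 9 cells, with none holding 4 or more. H19 was thus high in a few positive cells and not in the set at large. The other genes at the upper end were Commd3 of the COMMD family (40 against 10 UMIs, 1.99), the dynactin subunit gene Actr10 (42 against 14, 1.58), the kinase gene Csnk1e (39 against 13, 1.58), Chchd5 (39 against 14, 1.47), the Golgi sulphate-donor transporter gene Slc35b2 (51 against 20, 1.34) and the glutathione transferase gene Gsto1 (66 against 28, 1.23). These counts are small, and the lower ends of their intervals lie between 0.56 and 0.97.

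At the lower end stood Tmem242 (21 against 56 UMIs, log2 ratio -1.42), Prcc (14 against 41, -1.56), the ubiquitin ligase adaptor gene Spop (14 against 41, -1.56), the mitochondrial anchoring protein gene Akap1 (15 against 41, -1.46) and the syntaxin gene Stx3 (47 against 99, -1.08). Mrpl14 of the mitochondrial ribosome (43 against 91, -1.09), Ostc of the oligosaccharyltransferase (85 against 154, -0.86) and the topoisomerase gene Top1 (50 against 94, -0.92) followed. The last were the bromodomain gene Brd7 and the lymphocyte receptor gene Slamf1 (both 29 against 60, -1.05), the centrosome gene Cep57 (28 against 58, -1.06) and Tor1aip2 of the nuclear envelope (16 against 38, -1.25). None of these genes exceeded 7 UMIs in a cell.

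**Figure D2:**
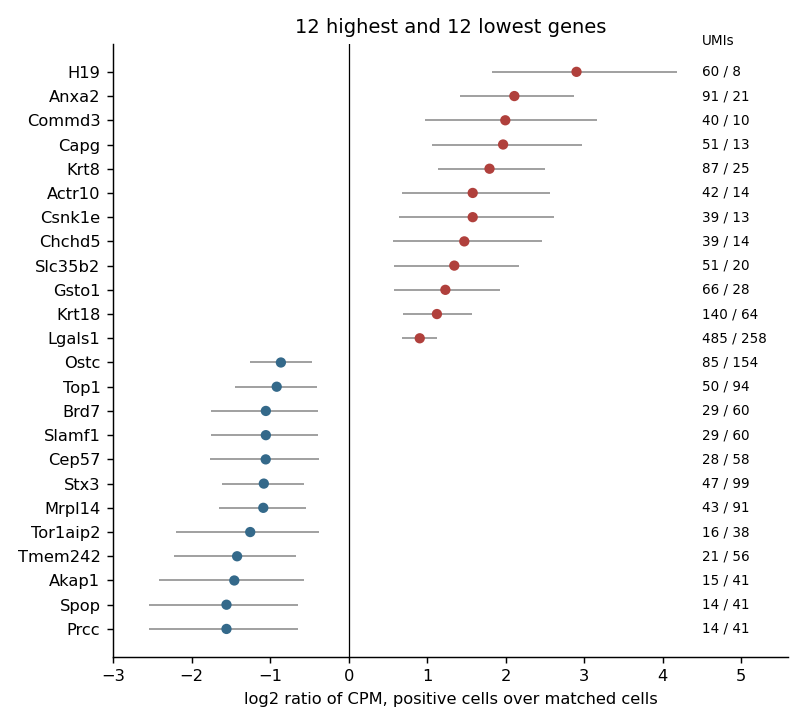
log2 ratio of CPM in the 180 positive cells over the 180 matched cells (x axis) for the 12 genes at each end of the ordering (y axis). Points are ratios of summed UMIs, lines are 95% counting intervals, and the numbers at the right are UMIs in positive and matched cells. H19 and Anxa2 lie farthest to the right at 2.90 and 2.11, and Lgals1 has the narrowest interval.

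Genes were next grouped by function, and each count past 2-fold below is to be read beside the 0.913% higher and 0.878% lower over all genes compared. Among partners of S100a6, 4 of 18 S100 and annexin genes had enough UMIs to compare, 1 of them 2-fold or more higher (Anxa2) and 0 lower, with a median log2 ratio of 0.41 against -0.01 over all genes compared. S100a10, the usual S100 partner of annexin A2, had 126 against 83 UMIs (0.60, 0.19 to 1.01) in 74 against 45 cells, Anxa7 had 40 against 34 (0.23) and the S100A6-binding protein gene Cacybp had 189 against 229 (-0.28, -0.57 to 0.00). Of genes too sparse to compare and mentioned after their values were seen, S100a11 had 24 against 10 UMIs, Anxa3 18 against 10 and Anxa1 23 against 17, while Anxa6 had 24 against 24, Anxa11 11 against 11, Anxa4 7 against 11 and S100a13 1 against 4. Among intermediate filament genes, the relatives of Krt17, 6 of 18 were compared, 2 were 2-fold or more higher (Krt8 and Krt18) and 0 lower, with a median of 0.58. The nuclear lamin gene Lmna had 68 against 38 UMIs (0.83, 0.24 to 1.45), Lmnb1 39 against 31 (0.33), Krt42 38 against 31 (0.29) and the neuronal filament gene Ina 32 against 38 (-0.25). Below the minimum and named after their values were seen, the simple-epithelial keratin genes Krt7 and Krt19 had 23 against 6 and 15 against 4 UMIs, and Krt10 had 4 against 11. The 23 Krt7 UMIs lay in 7 cells, 12 of them in 1 cell. Krt14, the marker of basal stratified epithelium, had 0 against 1 UMI, and Krt5 had 0 in both.

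The genes around Plaur gave little. Of 20 plasminogen and integrin genes, 4 were compared and 0 passed 2-fold either way, with a median of 0.23. The integrin subunit gene Itgb1 had 46 against 29 UMIs (0.66, -0.04 to 1.38), the fibronectin gene Fn1 33 against 26 (0.34), the actin regulator gene Enah 91 against 83 (0.13) and the tetraspanin gene Cd151 30 against 34 (-0.19). Plau, which encodes the ligand urokinase, had 0 UMIs in both sets, as had the protease genes Plat and Plg and the integrin gene Itgb3. The receptor transcript was therefore counted in cells in which its ligand transcript was not detectable at this depth.

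In pathways often named with these markers, 6 of 20 AP-1 and ERK response genes were compared, 1 was 2-fold or more higher and 0 lower, with a median of 0.17 that kept its sign in 10 of 18 alternative settings. Junb had 116 against 78 UMIs (0.57, 0.14 to 1.00) and Jund 57 against 32 (0.83, 0.18 to 1.50), both AP-1 subunits, whereas the immediate early gene Ier2 had 167 against 196 (-0.24) and the ERK-responsive factor gene Etv4 30 against 35 (-0.23). Phlda1, the gene past 2-fold and mentioned for that reason, had 41 against 17 UMIs (1.26). Of 30 actin cytoskeleton and SRF or YAP target genes 13 were compared, 11 of them above 0, with a median of 0.16 and 0 past 2-fold. Actb stood at 0.22, Actg1 at -0.00, Cfl1 at 0.01 and Pfn1 at -0.07. Of 12 epithelial junction genes 4 were compared and 1 was 2-fold or more higher, the claudin gene Cldn4 with 34 against 16 UMIs (1.08), beside Epcam at 0.06, Perp at 0.36 and Jup at 0.20. With positive cells of 1 marker UMI only, the median of the junction genes compared was -0.87, against 0.28 for all positive cells. The whole junction list summed to 518 CPM (424 to 628) in these 1-UMI cells and 576 (506 to 653) in the 180 matched cells, with overlapping intervals.

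Naive pluripotency genes were mostly below equality. Of 15 naive genes 7 were compared with 0 past 2-fold and a median of -0.41, with Zfp42, encoding Rex1, at 227 against 301 UMIs (-0.41, -0.67 to -0.16), Klf2 at 115 against 120 (-0.07), Nr0b1 at 31 against 46 (-0.57) and Klf5 on the other side at 85 against 46 (0.88, 0.35 to 1.43). With positive cells of 1 marker UMI only, the median of the naive genes still compared was 0.50. That median used partners matched again. The whole naive list was instead summed beside all 180 matched cells, so the 2 comparisons differ. It summed to 1525 CPM (1359 to 1706) in the cells with 1 marker UMI and 1601 (1483 to 1726) in the 180 matched cells, with overlapping intervals. Of 13 core genes 12 were compared with a median of -0.02 and 0 past 2-fold. Among primed genes the DNA methyltransferase genes Dnmt3b and Dnmt3a stood at 0.41 and 0.30 and Otx2 at -0.35. Of 12 Nodal pathway genes 3 were compared with a median of 0.28, Nodal itself having 29 against 21 UMIs (0.46, -0.40 to 1.34). Threonine dehydrogenase, Tdh, which feeds glycine synthesis in mouse embryonic stem cells, had 221 against 285 UMIs (-0.37, -0.63 to -0.11), while the 12 compared of 13 glycine and serine enzyme genes had a median of -0.03.

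For cell cycle genes, 17 of 20 S phase genes were compared with a median of -0.20, 3 of them above 0, and 16 of 20 G2 and mitosis genes with a median of 0.03, 9 above 0. The S phase list summed to 1549 against 1733 UMIs (-0.17, -0.27 to -0.07), the G2 and mitosis list to 1628 against 1524 (0.09, -0.01 to 0.19). The S phase median kept its sign in 18 of 18 alternative settings, the G2 and mitosis median in 9 of 18. The thymidylate synthase gene Tyms stood at -0.33 (-0.63 to -0.02), Mcm5 at 0.22 and Mcm7 at 0.16, and the mitotic genes Ube2c and Cdc20 at 0.69 (0.36 to 1.02) and 0.33 with Ccnb1 at -0.11. The 8 compared p53 targets had a median of 0.15 and the 8 compared stress response genes a median of -0.16. Of 16 imprinted genes 5 were compared, 2 of them 2-fold or more higher, H19 and Cdkn1c (40 against 19 UMIs, 1.07, mentioned after its value was seen), with a median of 0.55 that was -0.24 with positive cells of 1 marker UMI only. Meg3 stood at -0.05, Snrpn at -0.29 and Impact at 0.55. Igf2, the neighbour of H19 and too sparse to compare, had 10 UMIs in 6 positive cells and 1 UMI in 1 matched cell.

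Summed levels differed with the number of marker UMIs in the positive cells. In cells with 1 marker UMI, Krt18 stood at 74.8 CPM (41.8 to 123), Krt8 at 64.8 (34.5 to 111), Lgals1 at 578 (478 to 694) and H19 at 4.98 (0.126 to 27.8). Matched cells with 0 marker UMIs had 150, 58.8, 606 and 18.8 CPM of these genes, so cells with 1 marker UMI did not lie above them beyond counting error. In cells with 2 marker UMIs, Krt18 stood at 576 CPM (445 to 735), Krt8 at 364 (261 to 493), Lgals1 at 1534 (1314 to 1780) and H19 at 248 (165 to 359), and cells with 3 or more had 528, 290, 1724 and 273 CPM. Between 2 and 3 or more marker UMIs the intervals of these genes overlap. The summed levels of Krt18, Krt8, Lgals1 and H19 thus stepped up between 1 and 2 UMIs, with no further order. This step is one of sums, and for H19, Krt18 and Krt8 a minority of cells carried it. H19 was found in 6 of 47 cells with 2 marker UMIs and 4 of 43 with 3 or more, Krt18 in 11 and 14, and Krt8 in 14 and 9. Lgals1 was found in 37 cells of each group. Anxa2 was at 49.4 CPM in matched cells, 105 CPM (64.8 to 160) at 1 marker UMI, 372 at 2 and 246 at 3 or more. It was found in 14 of 47 cells with 2 marker UMIs and 14 of 43 with 3 or more. S100a10 had no such step between 1 and 2 UMIs. It stood at 195 CPM (155 to 242) with 0 marker UMIs and 324 (250 to 413) with 1, and these intervals do not overlap. With 2 and 3 or more it stood at 257 (172 to 369) and 281 CPM (193 to 397). Commd3 was already higher at 1 marker UMI, with 23.5 CPM (11.3 to 43.2) at 0 and 105 (64.8 to 160) at 1. At 2 and 3 or more it had 106 and 61.6 CPM. From 0 to 3 or more marker UMIs, Sfn stood at 193, 254, 390 and 519 CPM, and Capg at 30.6, 69.8, 168 and 158. Cells with 1 marker UMI had a median of 2138.5 UMIs in total, those with 2 had 2289 and those with 3 or more had 2596. Their own partners were of like depth. The levels above, however, are set beside all 180 matched cells together, with a median of 2227.5 UMIs.

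**Figure D3:**
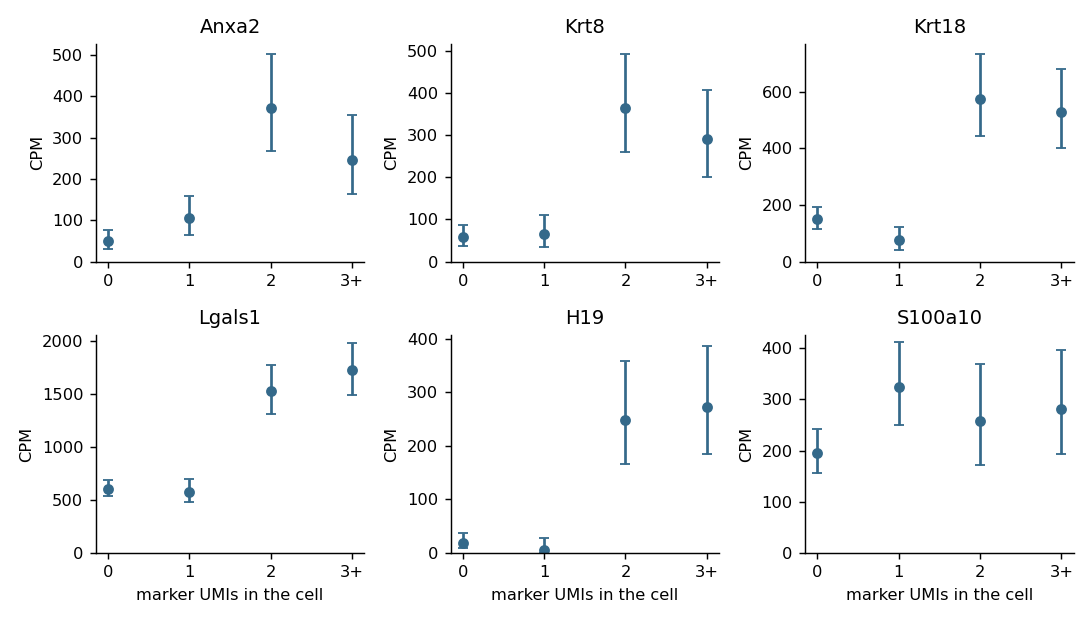
CPM (y axis) of 6 genes in the 180 matched cells with 0 marker UMIs and in positive cells with 1, 2 and 3 or more marker UMIs (x axis, 90, 47 and 43 cells). Points are CPM of summed UMIs and bars 95% counting intervals. Krt8, Krt18, Lgals1 and H19 are low at 0 and 1 and high from 2 UMIs on, for example Lgals1 at 606, 578, 1534 and 1724 CPM. S100a10 is lowest at 0, with 195, 324, 257 and 281 CPM.

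Split by marker, Anxa2 had 75 against 13 UMIs in S100a6 cells and their partners, 37 against 8 in Plaur cells and 6 against 3 in Krt17 cells. Krt8 had 65 against 22, 52 against 9 and 8 against 4 UMIs, and H19 had 59 against 7, 31 against 1 and 2 against 0. Lgals1 had log2 ratios of 1.23 in S100a6 cells, 1.01 in Plaur cells and 0.31 in the 34 Krt17 cells. S100a6 and Plaur cells thus carried most of the difference in these genes, but they share 23 cells, and Krt17 cells were too few to place them apart from the others. Klf2 had 17 against 52 UMIs in Plaur cells and 84 against 83 in S100a6 cells.

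A small group of keratin-rich cells held 107 of the 140 Krt18 UMIs and 57 of the 87 Krt8 UMIs of the positive cells. The cut at 5 or more Krt8 and Krt18 UMIs together was set after the values had been seen, and it uses genes of the comparison itself, so the group is described only. It held 14 of 180 positive cells (7.78%, 4.32 to 12.7%), 3 of 180 matched cells (1.67%, 0.345 to 4.79%) and 5 of all 411 cells with 0 marker UMIs. Of the 14 cells, 13 had 2 or more marker UMIs (13 of 90 such cells, 14.4%, 7.92 to 23.4%) and 1 had a single one (1 of 90). In these 14 cells Krt18 ranged from 1 to 20 UMIs with a median of 6, Krt8 from 0 to 9 with a median of 3.5, Lgals1 from 1 to 18 with a median of 8 and Anxa2 from 0 to 9 with a median of 2.5. The other 166 positive cells had medians of 0 UMIs for Krt8, Krt18 and Anxa2 and 1 UMI for Lgals1, with highest values of 4, 3, 3 and 29. S100a6 was present in 12 of the 14 and Plaur in 10, whereas Krt17 was found in 1.

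**Figure D4:**
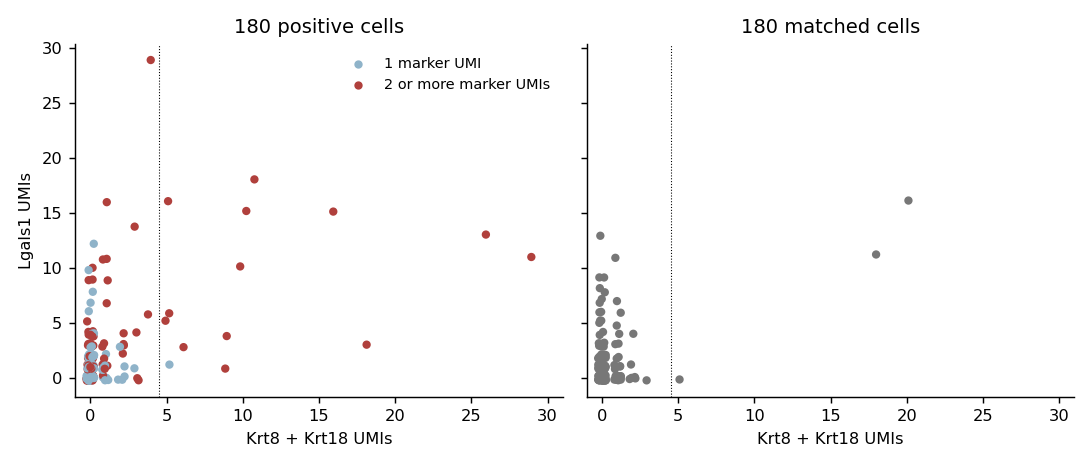
Lgals1 UMIs (y axis) against Krt8 and Krt18 UMIs together (x axis) for each of the 180 positive cells (left, coloured by marker UMIs) and the 180 matched cells (right). Points are moved by up to 0.25 UMI so that they can be told apart, and the dotted line separates cells with 5 or more keratin UMIs, 14 at the left and 3 at the right.

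Summed over the 14 keratin-rich cells, Anxa2 stood at 1423 CPM, Lgals1 at 3825, Sfn, which encodes the epithelial 14-3-3 sigma protein, at 1296 and H19 at 727. In the other 166 positive cells they stood at 116, 920, 286 and 93.6 CPM, and in the 177 matched cells below the cut at 42.9, 551, 188 and 16.7 CPM. The 5 keratin-rich cells with 0 marker UMIs had 810 CPM (326 to 1669) of Anxa2 and 4165 (2917 to 5766) of Lgals1. Sfn stood there at 463 CPM (126 to 1185) and H19 at 347 (71.6 to 1014). Lgals1 was found in 3 of these 5 cells and Anxa2 in 4, against 14 and 11 of the 14 keratin-rich positive cells. High summed Anxa2 and Lgals1 in keratin-rich cells were thus not limited to positive cells, though this rests on 5 cells. Without the keratin-rich cells, and with partners matched again, the log2 ratio was 1.43 for Anxa2, 1.32 for Krt8, 0.72 for Lgals1 and 2.40 for H19, while that of Krt18 was -0.00. Taking out cells by their Krt8 and Krt18 UMIs lowers both genes by construction, so their values there are a description. H19 in the other 166 positive cells rested on 37 UMIs in 6 cells, 16 of them in 1 cell. Naive pluripotency genes summed to 696 CPM (436 to 1053) in the 14 cells and 1484 (1367 to 1609) in the other 166 positive cells. Klf2 was at 0 UMIs in all 14, and in 112 of the other 166. Zfp42 was at 0 in 10 of the 14 and 79 of the 166. Its levels, 348 CPM (174 to 622) and 546 (476 to 624), have overlapping intervals. Tdh stood at 94.8 CPM in the 14 cells against 551 CPM in the other positive cells. Core genes were present, Dppa5a ranging from 0 to 42 UMIs with a median of 14.5 (other positive cells, median 20) and Pou5f1 from 0 to 3. The list of core genes summed to 10053 CPM in the 14 cells, 13564 CPM in the other positive cells and 13608 CPM in matched cells below the cut. In the 5 keratin-rich cells with 0 marker UMIs it summed to 6016 CPM (4493 to 7890).

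Markers of other cell types were checked over their whole lists. Extraembryonic endoderm genes that the selection had not used summed to 1707 CPM in the 14 keratin-rich cells, 1843 in the other positive cells, 1554 in matched cells and 11792 in the 37 endoderm-gene cells. The 2 compared of 16 such genes, Apoe and Sparc, both stood at 0.24, and Afp, Ttr and Apoa1 were at 0. Of the endoderm genes used in the selection, 18 positive and 11 matched cells held 1 to 3 UMIs, and 13 of the 14 keratin-rich cells held 0. Keratin-rich cells were also frequent among the endoderm-gene cells (12 of 37). For trophoblast, Cdx2, Elf5, Tpbpa and Prl3d1 were at 0 in both sets, and the 2 compared of 14 genes were Lgals3 (87 against 54 UMIs, 0.68, 0.18 to 1.20) and Phlda2 (124 against 131, -0.08). Trophoblast genes summed to 1612 CPM in the 14 keratin-rich, 561 in the other positive and 538 in matched cells. They had a UMI in 10 of 14, 84 of 166 and 102 of 180 cells. In the 5 keratin-rich cells with 0 marker UMIs they summed to 1273 CPM (635 to 2277). The part of trophoblast genes in the keratin difference was not tested.

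Among fibroblast markers, which would show carried-over feeder cells, Lgals1 was the single gene compared of 17, and the other 16 genes together had 31 UMIs in positive and 29 in matched cells. Of these, Col1a1, Col3a1, Col5a1, Col6a1, Dcn, Lum, Pdgfrb, Twist1 and Bgn were at 0 in both sets. The stratified epithelium list was represented by Sfn alone (154 against 82 UMIs, 0.90, 0.51 to 1.31), with Trp63, Krt6a, Krt6b, Col17a1, Ivl and Sprr1a at 0. Mesoderm genes had 4 UMIs in positive and 3 in matched cells over 12 genes. The neural list held a single compared gene, Stmn2, with 137 against 191 UMIs (-0.48, -0.81 to -0.16), and its regulators Sox1, Neurog2 and Olig2 were at 0. The 2-cell state genes had 12 UMIs, all in 1 positive cell, and 1 UMI in matched cells. The 406 cells with 0 marker UMIs and fewer than 5 keratin UMIs, from which most partners came, held 64 such UMIs in 2 cells. Of these, 63 lay in 1 cell, so cells rich in these transcripts were not limited to the positive side. The part of other cell types in the Lgals1 and Sfn differences was not tested.

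The same split, any marker UMI against none, was then made in barcodes that had taken no part in choosing the genes. In 54 positive Lefty cells and their partners, Krt18 had 43 against 7 UMIs (log2 ratio 2.61, 1.44 to 4.0), in 11 against 5 cells. Its filament partner Krt8 had 10 against 7 UMIs (0.50, -1.04 to 2.13), an interval that includes 0. Lgals1 had 113 against 75 (0.58, 0.14 to 1.02), while Anxa2 had 20 against 22 (-0.15) and H19 8 against 5 (0.66). In 56 positive PD100 barcodes under 1000 UMIs, Anxa2 had 10 against 2 UMIs (2.32, 0.09 to 5.55), Krt8 14 against 4 (1.81, 0.14 to 3.87) and Lgals1 56 against 26 (1.11, 0.41 to 1.84), while Krt18 had 21 against 17 (0.31). In the 17 positive PD800 cells, Lgals1 had 17 against 4 UMIs (2.09, 0.47 to 4.12), Krt8 3 against 2, Krt18 4 against 0 and Anxa2 2 against 0. Against all barcodes of the same set with 0 marker UMIs, without matching, Lgals1 stood at 0.60, 1.17 and 1.53 in the Lefty cells, the barcodes under 1000 UMIs and the PD800 cells. In the same comparison Krt18 stood at 1.81 (1.08 to 2.56) in Lefty cells, and in barcodes under 1000 UMIs Anxa2 stood at 0.73 (-0.44 to 1.76) and Krt8 at 1.01 (0.02 to 1.90). The interval of Lgals1 lay above 0 in all 3 sets by both comparisons, and that of Anxa2 under 1000 UMIs by matching only.

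Over the 12 genes of the upper end, 8 of 12 had more UMIs than in the partners in Lefty cells (median log2 ratio 0.54), 10 of 12 in barcodes under 1000 UMIs (median 1.00) and 6 of 11 in PD800 cells, with 1 equal (median 0.00). Of the 12 genes of the lower end, 8 had more UMIs and 4 fewer in Lefty cells, 5 more, 5 fewer and 2 equal in barcodes under 1000 UMIs, and 7 more, 4 fewer and 1 equal in PD800 cells. S100a10, looked at here after its values were seen, had 50 against 15 UMIs in Lefty cells (1.72, 0.87 to 2.66), 12 against 3 in barcodes under 1000 UMIs (2.0, 0.11 to 4.47) and 31 against 8 in PD800 cells (1.96, 0.80 to 3.29). Without matching these values were 1.08 (0.49 to 1.67), 0.24 (-0.78 to 1.15) and 1.11 (0.54 to 1.62), beside 0.60 in the cells in which the genes were ordered. For barcodes under 1000 UMIs the S100a10 difference thus depended on the 3 UMIs of the partners. The medians leave out genes with 0 UMIs on either side.

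**Figure D5:**
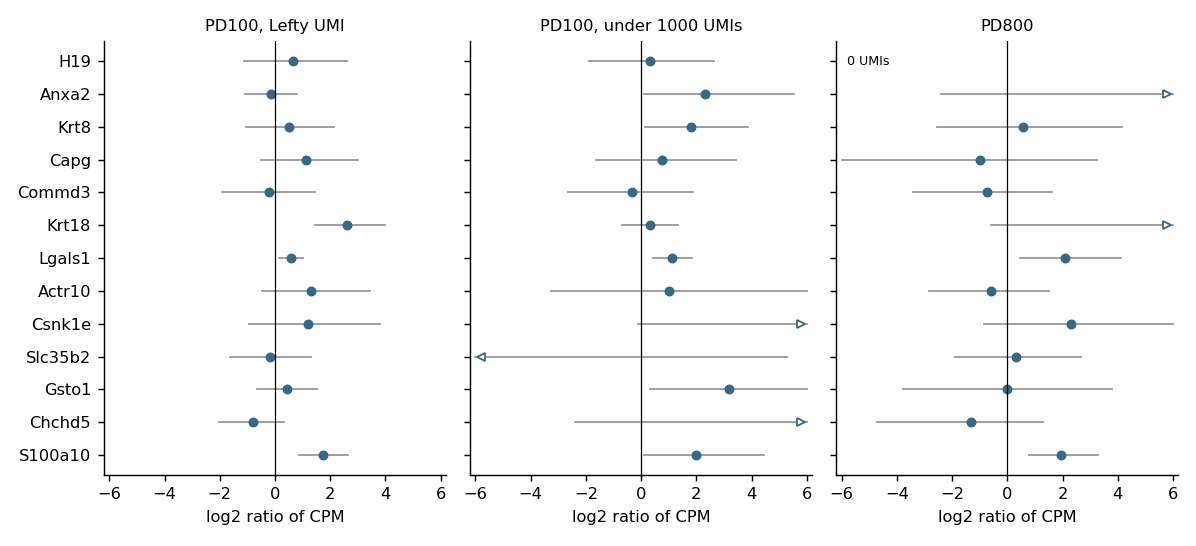
log2 ratio of CPM, barcodes with a marker UMI over depth-matched barcodes with none (x axes), for the 12 genes of the upper end and S100a10 (y axis) in 3 sets not used to choose them. Points are ratios, lines 95% counting intervals drawn to at most 6 either way, and open arrowheads mark genes with 0 UMIs on one side. Lgals1 (0.58, 1.11 and 2.09) and S100a10 (1.72, 2.0 and 1.96) lie to the right of 0 in each panel.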

How the data were processed

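Single-cell RNA-seq libraries from 2 time points of 1 Terc knock-out embryonic stem cell line were used, grouped by the passage in the labels. The deposited values are raw UMI counts for each barcode and gene. The authors made them in the inDrops pipeline on the GRCm38 assembly, and the submitters' processing notes name mm10 and Scanpy. The annotation release is not given in the sources used here. The members and the 23 gene lists were chosen with earlier results of these data known.

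The limits of the study's cell filter (1000 UMIs, 20% mitochondrial) and the selection described above were applied. The paper reports fewer cells after its filter at both time points than were kept here, and the reason was not tested. Positive cells were paired 1 to 1, in order of falling total UMIs, with the nearest unused cell of 0 marker UMIs within 10% of the total. UMIs were summed over each set and divided by the summed totals (CPM). Ratios have exact conditional (Clopper-Pearson), sums exact Poisson and shares exact binomial intervals at 95%. Genes with 50 or more UMIs over both sets were compared, without the 3 markers, and no p-value was computed from cells. Named genes are the markers, the 12 at each end, all compared genes of the S100 and annexin, intermediate filament, and plasminogen and integrin lists, and up to 4 genes with the most UMIs of each other list. Others (S100a11, Anxa1, Anxa3, Anxa4, Anxa6, Anxa11, S100a13, Krt7, Krt10, Krt19, Phlda1, Cdkn1c, Igf2 and list members at or near 0) were chosen after their values were seen. A member of the primed list, and the list's summary, are not reported here. Thinning used random seed 1. Doublets were called with Scrublet in Scanpy 1.11.5 at an expected 5%. It called 14 of 814 PD100 cells (1.72%), 2 of them positive cells, and they were kept. Steps were tested on simulated data. Computation used SciPy 1.17.1, NumPy 2.4.6, matplotlib 3.10.9 and pandas 2.3.3 under Python 3.11.15. Motif positions count from the gene start in RefSeq windows.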

Additional observations from a re-analysis of the deposited data

How the results depend on the processing

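The 26 genes 2-fold or more higher and 25 lower rest on sparse counts. Weighting all cells with 0 marker UMIs to the positive cells' depth gave 16 and 12 of 2828 genes compared, and no matching 33 and 49 of 3832. Thinning with seed 1 gave 11 and 20 of 2163, and keeping endoderm and Lefty cells gave 49 and 27 of 3668. A minimum of 20 UMIs per gene gave 176 and 207 of 5151 genes (3.42% and 4.02%). At 200 UMIs it was 1 and 0 of 830 (0.12% and 0%), and at 1 UMI 3824 and 4174 of 16293 (23.5% and 25.6%). Choosing by Krt17 alone (34 cells) gave 9 and 6 of 627 genes compared, by Plaur alone (62 cells) 20 and 14 of 1196, and by 1 marker UMI only (90 cells) 10 and 17 of 1558, against 2847 genes compared in the report. At 2 or more marker UMIs 90 cells were members, and 113 at a minimum of 2000 total UMIs. Without thinning, 24.5% of PD100 cells had an S100a6 or Krt17 UMI. Of the 26 higher genes, 12 were shared with the depth-weighted setting, 4 with the thinned one and 0 with 1 marker UMI only.

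Some log2 ratios changed sign, and the cause was not tested. By Krt17 alone Slc35b2 was -0.26 and Brd7 0.00093, and by Plaur alone Actr10 was -0.32. Without cells of 5 or more Krt8 and Krt18 UMIs, an alternative chosen after seeing the data, Krt18 was -0.00315. With 1 marker UMI only, also chosen after seeing the data and with partners matched again, H19 was -1.0, Krt18 -0.42 and Lgals1 -0.096. Median-of-ratios scaling gave 29 and 25 genes. Shallow cells limit every statement on single genes. No paired analysis was possible because each time point has 1 library and no test was made between them.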
